A study of Homo sapiens with 6 samples.

Results

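The clustered protocadherins are cadherin-like cell surface proteins encoded by tandem arrays of genes on human chromosome 5. They were taken here as every row of the deposited count table whose gene name is that of an alpha, beta or gamma cluster gene. This gave 55 of the 53712 genes in the table: 16 of the alpha cluster, 18 of the beta cluster and 21 of the gamma cluster. The alpha count includes the pseudogene PCDHA14, and the beta count includes the pseudogenes PCDHB17 and PCDHB18. PCDHGB5 was not analysed here.

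The libraries came from H9 human embryonic stem cells, an established line, kept in RSeT, which is a commercial medium for naive-type pluripotency. Every culture was given 10 nM of DZNep, which blocks S-adenosylhomocysteine hydrolase, with 5 nM of TSA, a blocker of histone deacetylases, starting 24 h after passage. Along with this mixture they were exposed for 48 h to 2.5 µM of one of a pair of analogs: UNC1999, which inhibits the histone H3 lysine methyltransferases EZH2 and EZH1, or UNC2400, the same molecule with added N-methylation and low activity. Each compound had 3 poly(A) RNA-seq libraries; since no culture went without an analog, every difference described is between the analogs, in cells that also carry DZNep and TSA. Separate culture of the replicates is not stated in the labels, and the p-values therefore refer to the spread among these libraries, part of which may be technical. Libraries held 33522942 to 34481593 counts with UNC1999 and 29699441 to 42345448 with UNC2400, and 3 counts correspond to 0.0718 to 0.104 CPM, the usual unit of counts scaled to library size. On the leading principal component, with 67.8% of the variance, UNC1999 replicate 1 lay at 20.1, while its group's other libraries lay at 39.3 and 41.4 and those with UNC2400 at -35.2 to -31.6, so UNC1999 replicate 1 stood apart from its group.

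In each cluster a series of variable exons lies in a row, every one behind its own promoter and coding for the extracellular cadherin repeats, the membrane span and part of the cytoplasmic tail. In the alpha and gamma clusters the chosen variable exon is spliced to constant exons at the 3′ end of the cluster, which code for a shared tail, whereas beta genes are single-exon genes with no constant exons. Single neurons express a small, largely random set of these isoforms, which bind their own kind across cell contacts and underlie self-avoidance of neurites. The C-type genes, at the end of the alpha and gamma clusters, are an exception, being expressed more evenly among neurons. Promoter choice is known to involve DNA methylation, CTCF and cohesin, and a short conserved promoter element that contains the bases CGCT. The SMCHD1 and DNMT3B proteins are known in mice to act on the clusters.

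Beta genes are the surest to count, because they share no exon bases with other members, whereas the other alpha and gamma genes share 21.3 to 64.4% of their exon bases with a neighbour and PCDHA14 shares 100%. Of the 55 members, 52 had enough counts to be tested. With edgeR's quasi-likelihood test and a Benjamini-Hochberg adjusted p under 0.05 over all 17596 genes tested, 5 members were higher with UNC1999 (PCDHAC1, PCDHAC2, PCDHB2, PCDHB5 and PCDHGC3). Another 6 were lower (PCDHB16, PCDHGA2, PCDHGB1, PCDHGA4, PCDHGB2 and PCDHGB3). The 11 calls are 21.2% of the tested members, against 52.7% of all tested genes (26.8% higher and 25.9% lower). Most members were low: 48 of the 52 averaged under 10 CPM, and 8 of these 48 (16.7%) passed the test, against 37.1% of all tested genes under that level. The share of members called was thus below the background. Libraries of the compounds did not overlap for 15 tested members, 9 with UNC1999 above and 6 with UNC1999 below, against 60.6% of all tested genes (30.9% above and 29.7% below). Without UNC1999 replicate 1, 8 members were higher and 7 lower, against 56% of all genes called. The median log2 fold change, UNC1999 over UNC2400, was 0.13 over the 52 members and 0.02 over all tested genes.

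**Figure D1:**
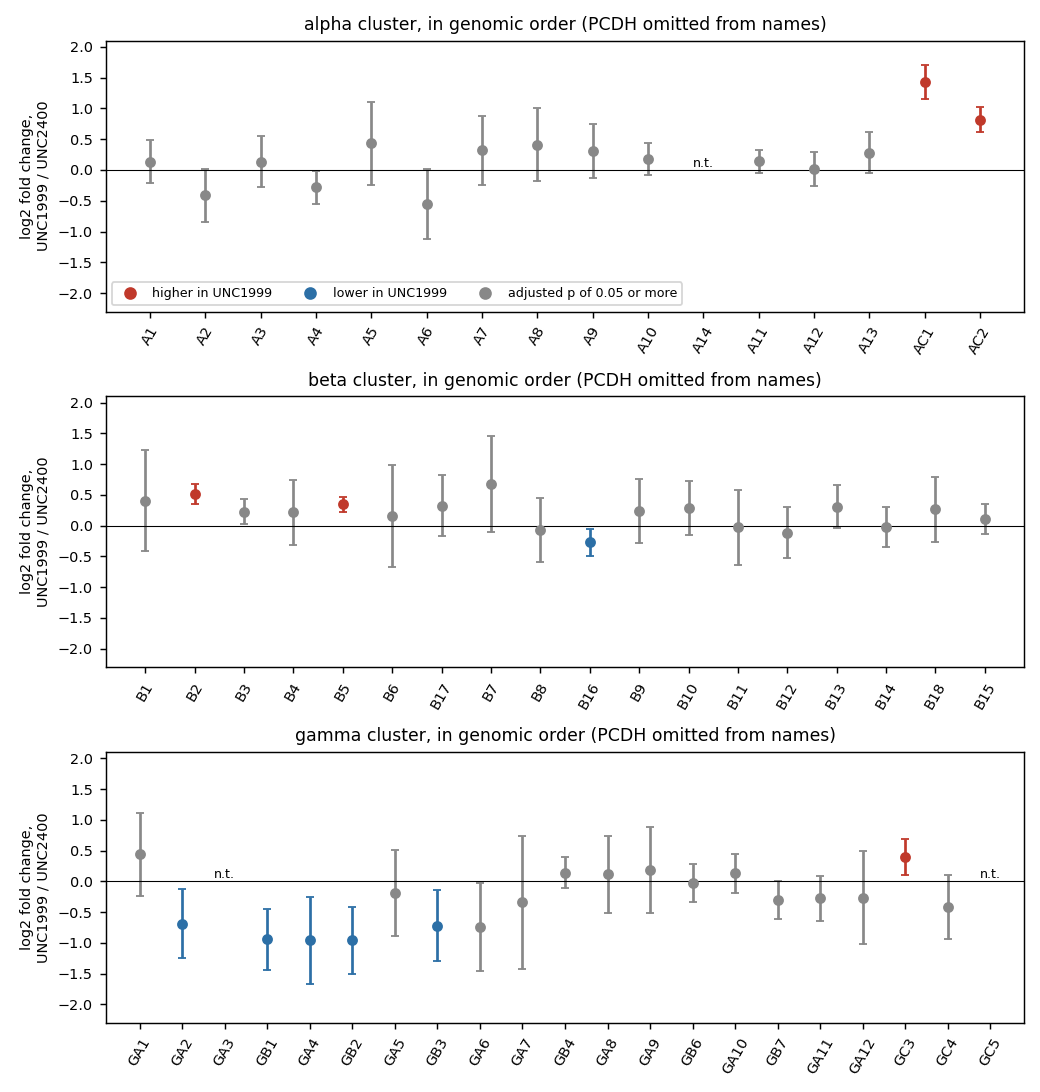
Log2 fold change (UNC1999 over UNC2400) of each member with its 95% confidence interval, in the order of the genes along the chromosome, for the alpha, beta and gamma clusters. Red points passed the test as higher, blue points as lower, grey points did not pass, and n.t. marks a member not tested; the alpha calls are the last 2 genes of their cluster, and 5 of the gamma calls lie among its first 8 genes.

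The beta cluster held the most abundant members, and its pair of leading genes was higher with UNC1999. PCDHB5 and PCDHB2 together made up most of the beta counts, PCDHB5 at 44.1% with UNC1999 and 42.3% with UNC2400, and PCDHB2 at 20.7% with UNC1999 and 17.7% with UNC2400. Both code for homophilic adhesion proteins of the beta type, which lack the constant tail. Of the 18 beta genes, all tested, 2 were higher, 1 was lower and 15 did not pass, against 26.8% higher and 25.9% lower over all tested genes. Log2 fold changes were positive for 13 beta genes and negative for 5, with a median of 0.23. The promoters of PCDHB2 and PCDHB5, from 250 bases before to 50 bases after the start site in RefSeq (GRCh38.p14, plus strand), are shown because these are the 2 beta genes called higher; capitals mark each CGCT.
PCDHB2, chr5:141094365-141094664: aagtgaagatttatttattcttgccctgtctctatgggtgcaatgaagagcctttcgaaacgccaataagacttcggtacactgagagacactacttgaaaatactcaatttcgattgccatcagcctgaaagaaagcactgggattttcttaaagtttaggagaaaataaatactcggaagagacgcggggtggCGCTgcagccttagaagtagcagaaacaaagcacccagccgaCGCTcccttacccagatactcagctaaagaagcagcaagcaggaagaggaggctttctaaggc
PCDHB5, chr5:141134956-141135255: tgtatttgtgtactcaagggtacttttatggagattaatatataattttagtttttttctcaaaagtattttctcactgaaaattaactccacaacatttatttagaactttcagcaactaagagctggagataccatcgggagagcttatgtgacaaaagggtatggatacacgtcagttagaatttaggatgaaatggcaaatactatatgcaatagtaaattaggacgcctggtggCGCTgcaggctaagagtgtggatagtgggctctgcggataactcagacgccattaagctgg

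PCDHB5 stood at 53.2, 55.3 and 54.4 CPM with UNC1999, against 45.8, 40.8 and 41.7 CPM with UNC2400. Every UNC1999 library was above every UNC2400 library, and the log2 fold change was 0.35 ± 0.06 (SE, n = 3 per group, adjusted p = 6.89e-05 by edgeR). PCDHB2 had 23.9, 28.0 and 24.5 CPM with UNC1999, against 18.9, 16.8 and 18.0 CPM with UNC2400. The groups did not overlap here either, and its log2 fold change was 0.51 ± 0.08 (SE, edgeR adjusted p = 3.36e-05). Per kilobase of exon, PCDHB5 was the highest member of the family, at 15.9 ± 0.313 CPM per kb with UNC1999 and 12.6 ± 0.784 with UNC2400 (SD, n = 3 each). PCDHB2 came second in this order, at 6.17 ± 0.538 CPM per kb with UNC1999 and 4.34 ± 0.26 with UNC2400. Both calls held under all 13 alternatives tried.

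PCDHB16 was the single beta gene called lower, and its difference was small. It had 6.38, 6.23 and 6.10 CPM with UNC1999, against 7.43, 7.14 and 7.99 CPM with UNC2400. All UNC1999 libraries lay below all UNC2400 libraries, with a log2 fold change of -0.27 ± 0.10 (SE, edgeR adjusted p = 0.0392). The call was lost in 8 of 13 alternatives, at adjusted p of 0.0516 to 0.148. PCDHB3, next to PCDHB2, lay at 8.73, 9.66 and 9.14 CPM with UNC1999 and 7.40, 8.19 and 7.85 CPM with UNC2400. Its groups did not overlap, but the log2 fold change of 0.23 (95% interval 0.02 to 0.43) missed the threshold at an adjusted p of 0.0567 by edgeR and passed in 4 alternatives.

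The other beta genes gave no call. PCDHB15 averaged 8.55 ± 1.08 CPM with UNC1999 and 7.98 ± 0.958 CPM with UNC2400 (SD, n = 3 each; log2 fold change 0.11, 95% interval -0.14 to 0.36). PCDHB13 averaged 4.40 ± 1.01 CPM with UNC1999 and 3.57 ± 0.442 CPM with UNC2400 (log2 fold change 0.31, interval -0.04 to 0.66), and its groups overlapped. The pseudogene PCDHB17 averaged 2.04 ± 0.541 CPM with UNC1999 and 1.65 ± 0.381 CPM with UNC2400 (log2 fold change 0.33, interval -0.17 to 0.82). Besides PCDHB16, 4 beta genes had negative values, and none of them passed. PCDHB14 averaged 2.84 ± 0.263 CPM with UNC1999 and 2.88 ± 0.136 CPM with UNC2400 (log2 fold change -0.02, interval -0.34 to 0.30). PCDHB12 averaged 1.65 ± 0.261 CPM with UNC1999 and 1.78 ± 0.0801 CPM with UNC2400 (log2 fold change -0.11, interval -0.52 to 0.30). The remaining pair were lower in level and had wider intervals. PCDHB8 averaged 1.06 ± 0.211 CPM with UNC1999 and 1.11 ± 0.131 CPM with UNC2400 (log2 fold change -0.07, interval -0.59 to 0.45). PCDHB11 averaged 0.666 ± 0.0764 CPM with UNC1999 and 0.672 ± 0.132 CPM with UNC2400 (log2 fold change -0.03, interval -0.64 to 0.58). PCDHB1, the first gene of the cluster, was low, at 0.548 ± 0.275 CPM with UNC1999 and 0.405 ± 0.0881 CPM with UNC2400 (log2 fold change 0.41, interval -0.41 to 1.23). PCDHB7 had the largest estimate among the beta genes, a log2 fold change of 0.68 with an interval of -0.10 to 1.46, from 0.464 ± 0.0574 CPM with UNC1999 and 0.287 ± 0.0781 CPM with UNC2400. Its libraries did not overlap between groups, yet its adjusted p was 0.134 by edgeR. PCDHB4, PCDHB6, PCDHB9, PCDHB10 and the pseudogene PCDHB18 gave log2 fold changes of 0.16 to 0.28, and the libraries of each overlapped between groups. Beta genes resemble each other in sequence: of all 50-base stretches, 20.2% in PCDHB2, 12.2% in PCDHB5, 11.3% in PCDHB16 and 45.8% in PCDHB8 also occur in another beta gene, and how reads with several matches were counted is not given in the sources used here. Antisense genes cover 501 exon bases of PCDHB5, 620 of PCDHB2 and 815 of PCDHB16, and the strand setting of the counting is not given either, so reads of the partners cannot be told apart.

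The alpha calls were the 2 C-type genes, PCDHAC1 and PCDHAC2, which close the cluster. PCDHAC1 rose 2.69-fold and PCDHAC2 1.76-fold with UNC1999, the largest increases among the members called. None of the other 13 tested alpha genes passed, in either direction. Of 15 alpha genes tested, 2 were thus higher and 0 lower, against 26.8% higher and 25.9% lower over all tested genes. PCDHAC2 is known in mice to be needed for the spacing of serotonergic axons. The promoters of both genes (RefSeq, GRCh38.p14, plus strand, 250 bases before to 50 after the start site), with each CGCT in capitals, are given because these genes rose most. CGCT occurs on the gene strand in 54.3% of all promoters, so the capitals alone do not mark the conserved element.
PCDHAC1, chr5:140926049-140926348: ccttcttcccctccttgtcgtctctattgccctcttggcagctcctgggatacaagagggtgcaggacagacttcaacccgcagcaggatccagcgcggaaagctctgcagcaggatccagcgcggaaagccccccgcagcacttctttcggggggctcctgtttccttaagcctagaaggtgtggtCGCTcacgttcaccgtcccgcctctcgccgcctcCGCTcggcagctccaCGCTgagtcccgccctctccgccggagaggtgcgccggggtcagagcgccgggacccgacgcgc
PCDHAC2, chr5:140966226-140966525: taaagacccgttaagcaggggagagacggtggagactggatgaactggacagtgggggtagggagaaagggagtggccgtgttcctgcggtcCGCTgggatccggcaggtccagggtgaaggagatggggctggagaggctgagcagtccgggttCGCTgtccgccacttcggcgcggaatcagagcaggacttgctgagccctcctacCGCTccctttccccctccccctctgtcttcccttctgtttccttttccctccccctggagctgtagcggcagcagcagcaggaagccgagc

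PCDHAC1 had 8.71, 11.6 and 10.6 CPM with UNC1999, against 3.78, 3.52 and 4.24 CPM with UNC2400. The lowest UNC1999 library, replicate 1, was still above the highest UNC2400 library. The log2 fold change was 1.43 ± 0.13 (SE, n = 3 per group, adjusted p = 1.42e-07 by edgeR). PCDHAC2 had 15.1, 18.1 and 17.7 CPM with UNC1999, against 10.4, 8.93 and 9.61 CPM with UNC2400. Again no library of one compound overlapped the other group, and the log2 fold change was 0.82 ± 0.09 (SE, edgeR adjusted p = 1.91e-06). Both were called under all 13 alternatives, and leaving out 1 library at a time moved PCDHAC1 between 1.33 and 1.52 and PCDHAC2 between 0.76 and 0.88 on the log2 scale. Per kilobase of its variable exon, PCDHAC2 stood at 5.47 ± 0.532 CPM per kb with UNC1999 and 3.11 ± 0.234 with UNC2400, and PCDHAC1 at 2.53 ± 0.364 with UNC1999 and 0.944 ± 0.0895 with UNC2400 (SD, n = 3 each). An antisense gene covers 256 exon bases of PCDHAC2 and 0 of PCDHAC1.

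The rise of the C-type pair changed the makeup of the alpha cluster. PCDHAC1 and PCDHAC2 together took 35.2, 37.4 and 38.2% of the alpha CPM with UNC1999, against 23.2, 23.5 and 22.8% with UNC2400. Summed, they reached 27.3 ± 3.11 CPM with UNC1999 and 13.5 ± 0.912 CPM with UNC2400 (SD, n = 3 each), a ratio of 2.02. The other 14 alpha genes summed to 46.4 ± 3.03 CPM with UNC1999 and 44.8 ± 3.64 CPM with UNC2400, a ratio of 1.04. This difference is smaller than the spread between libraries.

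Among the alpha genes outside the C-type pair, PCDHA11 was the highest per length, at 3.54 ± 0.17 CPM per kb of its own variable exon with UNC1999 and 3.21 ± 0.159 with UNC2400 (SD, n = 3 each). With UNC2400 it and PCDHAC2 lay within each other's spread, whereas with UNC1999 PCDHAC2 was higher. Its libraries did not overlap, at 11.1 to 12.1 CPM with UNC1999 and 9.84 to 10.8 CPM with UNC2400, but the log2 fold change of 0.14 (95% interval -0.04 to 0.33) did not pass (edgeR adjusted p = 0.184). PCDHA12 averaged 7.22 ± 0.347 CPM with UNC1999 and 7.22 ± 1.36 CPM with UNC2400, with a log2 fold change of 0.01 and an interval of -0.26 to 0.29. Its groups overlapped. PCDHA9 and PCDHA13 also lay higher in all UNC1999 libraries without passing, at log2 fold changes of 0.31 and 0.28. PCDHA1, PCDHA3, PCDHA5, PCDHA7, PCDHA8 and PCDHA10 gave values of 0.13 to 0.43 with overlapping libraries. Negative values were given by PCDHA2 (-0.41), PCDHA4 (-0.28) and PCDHA6 (-0.56), whose adjusted p were 0.103, 0.0773 and 0.0935 by edgeR. At an unadjusted p under 0.05, 1 of them (PCDHA4) would count as lower, DESeq2 and limma-voom called 0, and all 3 passed as lower when UNC1999 replicate 2 was left out. PCDHA14 had 0 counts in every library. In the GENCODE annotation 100% of its exon bases are shared with other members, and the annotation used for the counts is not stated. A count of 0 therefore cannot be read as absence of its RNA.

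**Figure D2:**
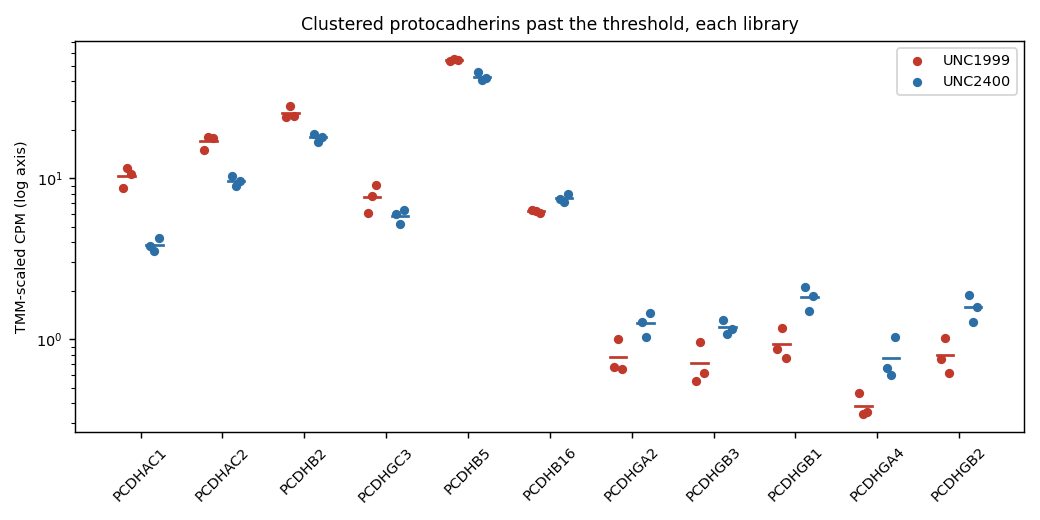
TMM-scaled CPM (log axis) of the 11 members past the threshold, in order of log2 fold change; each point is 1 library, UNC1999 left and UNC2400 right for each gene, and the bars are means of 3 libraries. The groups separate for all of them except PCDHGC3, and the 5 gamma genes called lower lie near or under 2 CPM.

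The gamma calls went mostly down, and the genes that fell lie close together. PCDHGA2, PCDHGB1, PCDHGA4, PCDHGB2 and PCDHGB3 stand at places 2, 4, 5, 6 and 8 of the 21 gamma genes in the table, and all were low, at 0.386 to 0.934 CPM with UNC1999 and 0.762 to 1.82 CPM with UNC2400. PCDHGC3, a C-type gene at place 19, was higher. Of 19 gamma genes tested, 1 was higher, 5 were lower and 13 did not pass. Over all tested genes, 26.8% were higher and 25.9% lower, so the share of gamma genes called lower was close to that background. Every gamma gene averaged under 10 CPM, and among all tested genes under that level 21.3% were higher and 15.8% lower. Whether the gamma calls depart from either background was not tested. Positive values were given by 6 gamma genes and negative values by 13, and the median log2 fold change was -0.28. The A and B subtypes code for isoforms of the random type. Promoters are shown for the 2 genes whose calls held under every alternative, PCDHGB1 and PCDHGB2, and for PCDHGC3, which moved in the opposite direction (RefSeq, GRCh38.p14, plus strand, same window, CGCT in capitals).
PCDHGB1, chr5:141349849-141350148: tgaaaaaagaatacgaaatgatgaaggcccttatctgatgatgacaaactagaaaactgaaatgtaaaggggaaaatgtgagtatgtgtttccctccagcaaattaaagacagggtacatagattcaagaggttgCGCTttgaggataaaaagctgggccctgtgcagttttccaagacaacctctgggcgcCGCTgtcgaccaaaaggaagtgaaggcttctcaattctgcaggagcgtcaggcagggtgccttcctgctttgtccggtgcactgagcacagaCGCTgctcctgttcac
PCDHGB2, chr5:141359886-141360185: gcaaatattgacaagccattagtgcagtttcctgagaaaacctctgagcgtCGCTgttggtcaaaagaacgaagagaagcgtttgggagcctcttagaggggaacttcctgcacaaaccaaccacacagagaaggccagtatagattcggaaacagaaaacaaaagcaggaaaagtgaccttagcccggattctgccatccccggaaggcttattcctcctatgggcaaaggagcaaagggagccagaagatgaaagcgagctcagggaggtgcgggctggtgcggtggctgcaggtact
PCDHGC3, chr5:141475716-141476015: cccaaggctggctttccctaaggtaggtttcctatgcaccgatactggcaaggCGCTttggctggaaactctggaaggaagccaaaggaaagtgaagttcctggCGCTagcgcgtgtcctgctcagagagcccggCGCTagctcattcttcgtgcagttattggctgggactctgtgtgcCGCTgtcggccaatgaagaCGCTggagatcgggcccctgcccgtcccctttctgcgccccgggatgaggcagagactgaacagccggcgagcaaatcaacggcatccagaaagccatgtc

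PCDHGB1 had 0.871, 1.17 and 0.766 CPM with UNC1999, against 2.12, 1.49 and 1.86 CPM with UNC2400. PCDHGB2 had 0.754, 1.02 and 0.619 CPM with UNC1999, against 1.88, 1.27 and 1.59 CPM with UNC2400. In both genes all UNC1999 libraries were below all UNC2400 libraries, and their levels followed the same order of libraries within each group. The log2 fold changes were -0.94 ± 0.24 for PCDHGB1 (SE, edgeR adjusted p = 0.00291) and -0.96 ± 0.26 for PCDHGB2 (SE, edgeR adjusted p = 0.00463). Summed over 3 libraries these values rest on 97 counts with UNC1999 and 179 with UNC2400 for PCDHGB1, and on 83 with UNC1999 and 155 with UNC2400 for PCDHGB2. PCDHGB1 lies over an antisense gene along 554 of its exon bases.

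The other gamma genes that fell were nearer the threshold. PCDHGA4 had 0.464, 0.341 and 0.354 CPM with UNC1999, against 0.660, 0.599 and 1.03 CPM with UNC2400 (log2 fold change -0.96 ± 0.34 SE, edgeR adjusted p = 0.0242). PCDHGB3 had 0.551, 0.966 and 0.619 CPM with UNC1999, against 1.32, 1.08 and 1.16 CPM with UNC2400 (log2 fold change -0.72 ± 0.27 SE, edgeR adjusted p = 0.0356). PCDHGA2 had 0.667, 0.995 and 0.648 CPM with UNC1999, against 1.29, 1.03 and 1.46 CPM with UNC2400 (log2 fold change -0.69 ± 0.27 SE, edgeR adjusted p = 0.0391). None of these 3 overlapped between groups. With DESeq2, which called 47.4% of all tested genes, all 3 missed the threshold, at adjusted p of 0.0565 for PCDHGA4, 0.0645 for PCDHGB3 and 0.0685 for PCDHGA2. Over the alternatives their adjusted p ranged over 0.0172 to 0.152 for PCDHGA4, 0.00992 to 0.114 for PCDHGB3 and 0.0162 to 0.144 for PCDHGA2. PCDHGA6, the next gene along, averaged 0.808 ± 0.262 CPM with UNC1999 and 1.37 ± 0.711 CPM with UNC2400, and its value of -0.74 did not pass (edgeR adjusted p = 0.0779). Not every gene in the stretch was called lower. PCDHGA5, at place 7, had a log2 fold change of -0.18 (95% interval -0.88 to 0.52), and PCDHGA3, at place 3, was not tested. Just before the stretch, PCDHGA1, at place 1, had a log2 fold change of 0.44 (interval -0.23 to 1.11).

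PCDHGC3 codes for the C-type isoform known in mice to bind Axin1 and to promote dendrite growth. It had 6.09, 7.79 and 9.05 CPM with UNC1999, against 6.01, 5.17 and 6.33 CPM with UNC2400. UNC1999 replicate 1 lay inside the range of UNC2400, so the groups overlapped, and the log2 fold change was 0.40 ± 0.14 (SE, edgeR adjusted p = 0.0223). The call was lost without UNC1999 replicate 2 (adjusted p = 0.0651), without UNC1999 replicate 3 (0.168) and without UNC2400 replicate 2 (0.124), and over the alternatives the adjusted p ranged over 0.000292 to 0.168. PCDHGC4, a C-type gene known in mice to support the survival of neurons, averaged 0.887 ± 0.129 CPM with UNC1999 and 1.19 ± 0.167 CPM with UNC2400. Its log2 fold change of -0.41 had an interval of -0.93 to 0.11 and did not pass (edgeR adjusted p = 0.174). PCDHGC5 was too low to test, with 7 counts over the UNC1999 libraries and 15 over the UNC2400 libraries, a ratio of 0.454 with an exact 95% counting interval of 0.157 to 1.18. PCDHGA3 was likewise not tested, with 23 counts with UNC1999 and 25 with UNC2400 (ratio 0.895, counting interval 0.485 to 1.64). These intervals cover counting error only.

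None of the more abundant gamma A and B genes passed. PCDHGB4 averaged 5.74 ± 0.269 CPM with UNC1999 and 5.24 ± 0.496 CPM with UNC2400 (SD, n = 3 each; log2 fold change 0.14, 95% interval -0.11 to 0.39). PCDHGB7 averaged 3.92 ± 0.657 CPM with UNC1999 and 4.85 ± 0.549 CPM with UNC2400 (log2 fold change -0.30, interval -0.61 to 0.01). It missed the threshold at an adjusted p of 0.0937 by edgeR and passed in 2 of 13 alternatives. PCDHGA10 averaged 3.31 ± 0.162 CPM with UNC1999 and 3.05 ± 0.421 CPM with UNC2400 (log2 fold change 0.13, interval -0.19 to 0.45). PCDHGB6 averaged 2.99 ± 0.202 CPM with UNC1999 and 3.05 ± 0.121 CPM with UNC2400 (log2 fold change -0.03, interval -0.34 to 0.28). PCDHGA11 averaged 2.39 ± 0.489 CPM with UNC1999 and 2.90 ± 0.249 CPM with UNC2400 (log2 fold change -0.28, interval -0.65 to 0.09). The libraries of each of these genes, PCDHGB4 and PCDHGB7 included, overlapped between groups. The less abundant PCDHGA7 (-0.34), PCDHGA8 (0.11), PCDHGA9 (0.18) and PCDHGA12 (-0.26) did not pass either, and the libraries of each overlapped between groups.

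Summed over whole clusters, the alpha and beta clusters were higher with UNC1999 and the gamma cluster was not. The alpha sum was 73.7 ± 5.98 CPM with UNC1999 and 58.3 ± 4.54 CPM with UNC2400 (ratio 1.26), almost all of the gap coming from the C-type pair. The beta sum was 123 ± 6.31 CPM with UNC1999 and 101 ± 5.10 CPM with UNC2400 (ratio 1.22). In both sums every UNC1999 library exceeded every UNC2400 library. The gamma sum was 35.1 ± 1.23 CPM with UNC1999 and 37.8 ± 2.80 CPM with UNC2400 (ratio 0.927), and the groups overlapped. Within gamma, the ratio was 0.879 for the A genes, 0.852 for the B genes and 1.20 for the C genes. These sums are descriptions with no test, and they too depend on whether reads that match or overlap several members were counted, which is not stated.

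**Figure D3:**
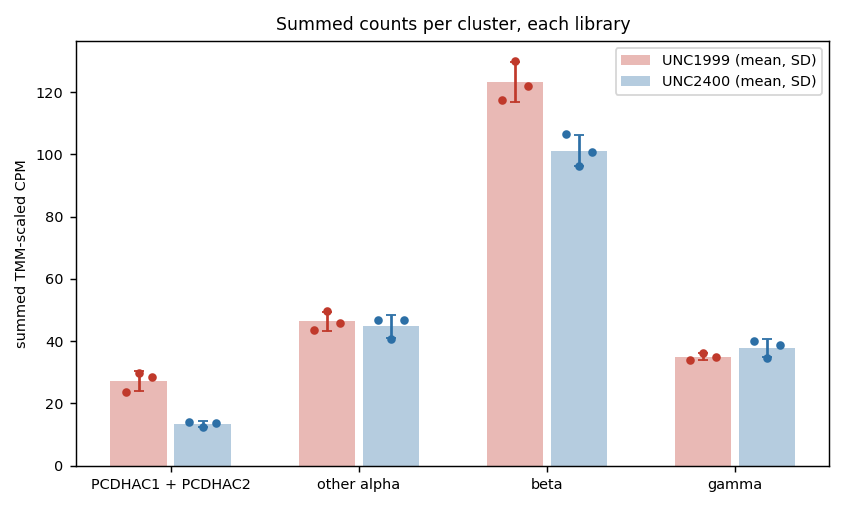
Summed TMM-scaled CPM of PCDHAC1 plus PCDHAC2, the other alpha genes, the beta genes and the gamma genes; points are single libraries, bars are means of 3 libraries and whiskers are SD, UNC1999 left and UNC2400 right. The C-type pair (27.3 and 13.5 CPM) and the beta cluster (123 and 101 CPM) separate between the compounds, while the other alpha genes and the gamma genes overlap.

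Gene length differs widely among the members. In the GENCODE annotation, beta genes span 2740 to 8210 bp, PCDHGC3 37033 bp, PCDHAC2 46110 bp and PCDHAC1 85976 bp, whereas the gamma genes called lower span 142716 to 174220 bp and the 13 other tested alpha genes 130137 to 226212 bp, since each runs to the shared constant exons. Over all tested genes, the share higher with UNC1999 was 39.4% and the share lower 12.9% for spans under 25 kb, against 14.5% higher and 45.1% lower at 100 to 150 kb and 9.25% higher and 55.0% lower at 150 to 200 kb. The median log2 fold change was 0.15 under 25 kb and -0.27 at 150 to 200 kb. PCDHB5 and PCDHB2, called higher, and the gamma genes called lower went in the direction more common in their bins. PCDHB16, which spans 5001 bp and was called lower, went in the less common one. PCDHAC1, called higher, lies in the 50 to 100 kb bin, where the median was -0.08 and 19.8% of genes were higher. PCDHAC2 and PCDHGC3, also called higher, lie in the 25 to 50 kb bin. There the median was -0.009, with 26.0% of genes higher and 27.8% lower. Those 13 alpha genes had 10 positive and 3 negative values, and the bins over 100 kb had negative medians. The part of length in these results was not tested.

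**Figure D4:**
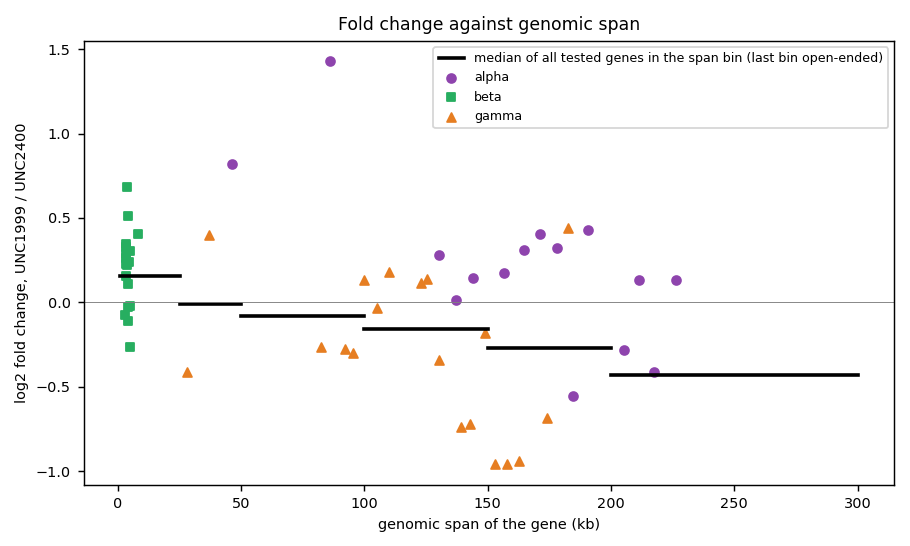
Log2 fold change (UNC1999 over UNC2400) of each tested member against the genomic span of the gene in kb; black lines are the medians of all tested genes in 6 span bins, which run from 0.15 under 25 kb to -0.43 over 200 kb. Beta genes (squares) cluster at short spans, PCDHAC1 and PCDHAC2 (circles at 85976 and 46110 bp) lie above the line of their bin, and the gamma genes called lower (triangles) lie below theirs.

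The C-type promoters held more CpG than most others of the family. RefSeq promoters were found for 46 of the 55 members. The 4 C-type promoters found held 15 to 27 CpG dinucleotides in 300 bases (PCDHAC1 27, PCDHGC4 23, PCDHGC3 18 and PCDHAC2 15), against a median of 14 over 35116 promoters. The other groups were CpG-poor, with medians of 7 for the other alpha genes, 7.5 for the beta genes and 6 for the gamma A and B genes, the highest of which was PCDHGB6 with 16. Among C-type genes, PCDHAC1, PCDHAC2 and PCDHGC3 were called higher with UNC1999 and PCDHGC4 was not, so a high CpG count and a higher level did not always go together. PCDHB2 and PCDHB5, also called higher, had 10 and 6 CpG. DNA methylation and histone marks were not analysed here, and the part of CpG content in the results was not tested.

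**Figure D5:**
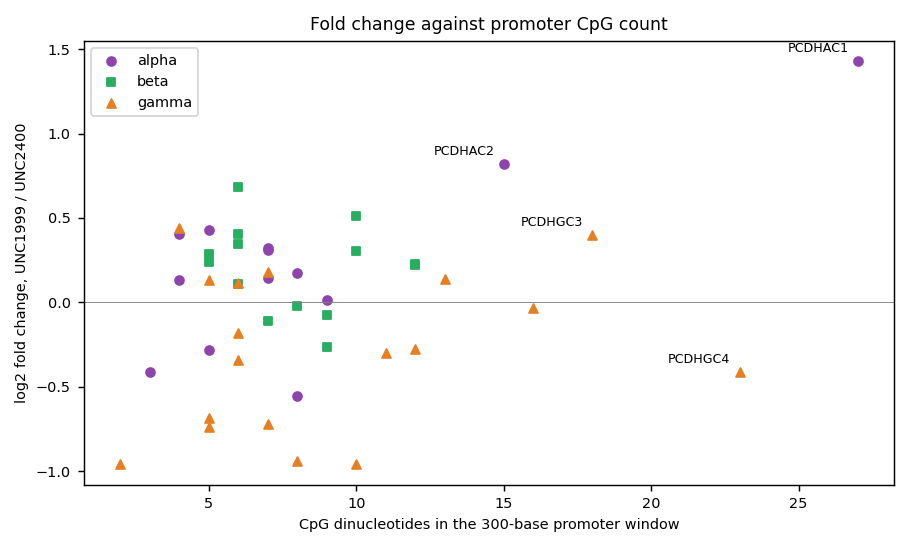
Log2 fold change (UNC1999 over UNC2400) of the tested members with a RefSeq promoter, against the number of CpG dinucleotides in the 300-base promoter window. The 4 labelled C-type genes have 15 or more CpG, and 3 of them lie above 0 while PCDHGC4 lies at -0.41; among the others, at 2 to 16 CpG, values run in both directions.

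The bases CGCT occurred on the gene strand in 45 of 46 member promoters (97.8%; the same share on either strand), against 54.3% of all promoters on the gene strand and 70.0% on either strand. Longer strings that contain it differed in frequency between clusters. GTGGCGCT, which contains CGCT, was on the gene strand in 13 of 14 beta promoters and in no alpha or gamma promoter, against 0.638% of all promoters (1.15% on either strand). It began 59 bases before the start site in PCDHB2, 15 in PCDHB5 and 65 in PCDHB16, so it was present both in the beta genes called higher and in the one called lower. CGCTGT, which also contains CGCT, was on the gene strand in 16 of 19 gamma, 6 of 13 alpha and 1 of 14 beta promoters, against 5.95% of all promoters (11.2% on either strand). In PCDHGB1 it began 58 bases and in PCDHGB2 199 bases before the start site, and PCDHAC1 lacked it in this window. Both longer strings were picked after reading the members' promoters, so their frequency in the family is a description.

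Genes known to act on promoter choice in the clusters were set beside the members, as lists chosen with earlier results of these data known. By the same edgeR test, 1 of 14 insulator and cohesin genes was higher and 7 were lower with UNC1999, with a median log2 fold change of -0.12. Over all tested genes, 26.8% were higher and 25.9% lower, the shares to set beside this list and each one below. Whether any list departs from these shares was not tested. Single log2 fold changes follow the gene names. CTCF, the zinc-finger protein that binds protocadherin promoters and enhancers, averaged 183 ± 6.04 CPM with UNC1999 and 167 ± 6.74 CPM with UNC2400 (log2 fold change 0.13 ± 0.05 SE, edgeR adjusted p = 0.0391), a call lost in 7 of 13 alternatives. The cohesin core subunit SMC1A (-0.42), the cohesin loader NIPBL (-0.34) and the regulators PDS5A (-0.30) and PDS5B (-0.28) fell. RAD21, another core subunit, gave 0.12 and an adjusted p of 0.0541 by edgeR. Of 19 silencing regulators tested, 3 were higher and 11 lower, with a median of -0.25. DNMT3B, a de novo DNA methyltransferase, fell to 1202 ± 196 CPM with UNC1999, against 2498 ± 83.8 CPM with UNC2400 (log2 fold change -1.06 ± 0.09 SE). DNMT1, the maintenance methyltransferase (-0.61), EHMT1, a histone H3 lysine methyltransferase (-0.74), ATRX, a chromatin remodeller (-0.43), EZH2, a target of UNC1999 (-0.33), and SMCHD1 (-0.31) also fell. SETDB1, a further H3 lysine methyltransferase, gave 0.09 and did not pass (edgeR adjusted p = 0.16).

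Of 18 genes for signalling and processing partners of protocadherins tested, 4 were higher and 11 lower (median -0.19). The shares over all tested genes were 26.8% higher and 25.9% lower. Those with the smallest p were DAB1, an adaptor in reelin signalling (-0.92), ABI2, of the WAVE actin-regulating complex (-0.49), PTK2, the focal adhesion kinase that alpha and gamma tails bind (-0.55), and ADAM10, the sheddase that cleaves gamma protocadherins (-0.43), all lower. Of 12 non-clustered protocadherins, 3 were higher and 4 lower (median -0.11), not far from the shares over all tested genes. PCDH8, an activity-regulated protocadherin of synapses, rose to 11.4 ± 0.473 CPM with UNC1999, against 4.55 ± 0.421 CPM with UNC2400 (log2 fold change 1.32 ± 0.11 SE). PCDH18 (0.40) rose, and PCDH10 (-0.69) and PCDH1 (-0.34) fell. Of the large cadherins of the FAT, Dachsous, CELSR and CDHR families, 12 of 14 were tested, with 0 higher and 7 lower by edgeR (median -0.41). At an unadjusted p under 0.05, and by DESeq2 or limma-voom, the count of higher genes was 0 as well. Those lower with the smallest p were FAT4 (-0.69), CELSR3 (-0.61), CELSR1 (-0.60) and CELSR2 (-0.43).

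Genes flanking and interleaved with the clusters were mixed, with 9 higher and 6 lower of 21 tested (median 0.09). Among all tested genes, 26.8% were higher and 25.9% lower. TAF7, a TFIID subunit gene between the beta and gamma clusters, rose to 170 ± 15.0 CPM with UNC1999, against 128 ± 5.31 CPM with UNC2400 (log2 fold change 0.41 ± 0.06 SE). SLC25A2, a mitochondrial carrier gene in the same interval, was too low to test, with 5 counts with UNC1999 and 2 with UNC2400. GNPDA1, a glucosamine phosphate deaminase gene (log2 fold change 0.45), HARS2, a mitochondrial tRNA synthetase gene (0.48), and RNF14, a ubiquitin ligase gene (0.41), also rose.

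Clustered protocadherins are best known from neurons, so marker lists were read beside the members. The background for the counts below is 26.8% higher and 25.9% lower over all tested genes. The pluripotency genes defined the cells, at 6817 to 7571 CPM in sum with UNC1999 and 8323 to 8437 CPM with UNC2400, with 5 higher and 6 lower of 16. DNMT3L, a DNA methyltransferase cofactor (1.73), and KLF4, a naive-state factor (0.62), rose and TERF1, a telomere protein (-0.94), fell. POU5F1, a core pluripotency factor, stood at 1024 ± 80.8 CPM with UNC1999 and 1393 ± 29.2 CPM with UNC2400. The 16 neural markers summed to 815 to 854 CPM with UNC1999 and 633 to 664 CPM with UNC2400, with 3 higher and 5 lower of 13 tested. The higher sum came mainly from NES alone, which averaged 430.3 CPM with UNC1999 and 231.5 CPM with UNC2400. TUBB3, the other abundant marker, averaged 331 CPM with UNC1999 and 351 CPM with UNC2400 and did not pass. NES, a progenitor intermediate filament (0.89), STMN2, a neuronal tubulin regulator (1.93), and POU3F2, a neural transcription factor (2.29), rose and DCX, a microtubule protein of migrating neurons (-0.65), fell, while the defining factors SOX1, NEUROD1 and NEUROG2 averaged under 0.2 CPM with both compounds. The 16 fibroblast or feeder markers summed to 541 to 546 CPM with UNC1999 and 734 to 807 CPM with UNC2400, with 2 higher and 8 lower of 12 tested, and COL3A1, DCN, LUM and PRRX1 averaged under 0.2 CPM. The collagen genes COL6A2 (-1.16), COL6A1 (-1.01) and COL1A1 (-0.76) fell, and VIM, an intermediate filament gene, rose to 146 ± 18.9 CPM with UNC1999, against 73.2 ± 3.80 CPM with UNC2400. The part of these shifts in the protocadherin results was not tested, and in bulk RNA fewer cells of a type and less RNA per cell cannot be told apart.

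The authors' deposited table lists 54 of the 55 members, 5 of them higher and 7 lower with UNC1999 at an adjusted p under 0.05, against 44% of its 20901 genes called. In the authors' deposited table PCDHAC1 has a log2 fold change of 1.41 and PCDHAC2 one of 0.81. It also calls PCDHGA6 lower (-0.78, adjusted p = 0.0171 in the authors' deposited table), which did not pass in the counts as tested here.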

How the data were processed

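The authors deposited raw whole-number counts for each gene name. Per the submitters' processing notes, which state neither order nor purpose, the tools were Trim Galore 0.4.0, TopHat2 2.0.13, Subread 1.5.0 and featureCounts, and the build was hg19. The annotation, strandedness and multiple-match rules of the counting are not stated. The deposited table's name says that duplicates were removed, but not which kind. The authors' deposited comparison table gives log2 fold changes and adjusted p-values under column names that limma uses, per the file headers. The deposited log2 values marked as batch-corrected were not used.

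Counts of all 6 libraries were fitted with edgeR 4.0.16 (R 4.3.3; TMM scaling, filterByExpr, quasi-likelihood F test, Benjamini-Hochberg adjustment over 17596 genes, threshold 0.05, 95% intervals), after a test on simulated counts. CPM values are TMM-scaled. Alternatives were other scalings, other low-count filters, DESeq2 1.42.0, limma-voom 3.58.1, a replicate block and leaving out each library. No pair of replicates agreed within sampling noise (chi-square 4.23 to 12.2 per gene). Gene spans, exon sharing and gene order are from GENCODE release 29, and promoters from RefSeq (GRCh38.p14), matched by symbol; a span was found for 84.3% of tested genes. Coordinates printed are of GRCh38.p14, not of the build of the counts. Levels per kb divide CPM by the largest exon that no other member shares.

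The members and the other gene lists were chosen with earlier results of these data known. Mean or per-library CPM (per kb for PCDHA11), log2 fold change and interval or SE are given for tested genes among the 8 beta, 4 alpha and 6 gamma genes with the highest mean CPM, the C-type genes, PCDHB1 and beta genes against the direction of most, and values for up to 4 genes of each other list with the smallest p; every other member called is given too. A neural marker of the original list is not reported here.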

Additional observations from a re-analysis of the deposited data

How the results depend on the processing

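Of the 11 members called, 6 kept their call and direction under all 13 alternatives: PCDHAC1, PCDHAC2, PCDHB2 and PCDHB5 higher and PCDHGB1 and PCDHGB2 lower. PCDHB16, the lone beta gene called lower, did not pass with upper-quartile scaling, without a low-count filter or with DESeq2, which leaves 0 beta genes lower. DESeq2 left 2 gamma genes lower in place of 5. Leaving out 1 library at a time gave 2 to 5 beta genes higher and 0 to 1 lower, 2 alpha genes higher and 0 to 3 lower, and 0 to 1 gamma genes higher and 2 to 6 lower. The 5 beta calls came without UNC1999 replicate 1, the library that stood apart; without it 8 members were higher and 7 lower. Over all genes these fits gave 3642 to 4925 higher and 3951 to 5151 lower. The cluster ratios ranged over 1.21 to 1.318 (alpha), 1.183 to 1.249 (beta) and 0.8901 to 0.9555 (gamma). The cause of these changes was not tested. A filter of 1 CPM in 3 libraries tested 39 members and dropped PCDHGA4.

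Values over the alternatives were taken only for the members chosen for full statistics and those called. Of these, 6 that were not called changed sign, and the sign of the other members was not followed. With 1 library left out, PCDHB14 ranged over -0.089 to 0.036, PCDHA12 over -0.15 to 0.118, PCDHGB6 over -0.095 to 0.001, PCDHB1 over -0.074 to 0.656, PCDHB8 over -0.218 to 0.071 and PCDHB11 over -0.172 to 0.086. PCDHA12 was -0.003 without a filter and with DESeq2.

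Whether a replicate number marks a shared batch is not stated in the labels; the authors' deposited log2 values, not used here, are, by their name, apparently batch-corrected. The deviations of same-numbered libraries correlated at 0.024, 0.084 and 0.12, too weakly to treat the numbers as pairs, although each UNC1999 library correlated best with its own number, a hint from the data. With the replicate block, 6 members were higher and 8 lower, against 54.3% of all genes called, adding PCDHB3, PCDHGA6 and PCDHGB7; no call was lost.

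Depth limits the low members: the gamma genes called lower averaged under 2 CPM with both compounds, and changes smaller than a gene's interval were not detectable.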

Other observations

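Related pseudogenes lie outside the naming rule. PCDHB19P had 18 counts over the UNC1999 libraries and 25 over the UNC2400 libraries and was not tested. PCDHGB8P had 43 counts with UNC1999 and 39 with UNC2400, and its log2 fold change of 0.11 did not pass (edgeR adjusted p = 0.818).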
